A study of Mus musculus with 6 samples.

Results

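The CD28 receptor family was followed in the transcriptome of double-negative (DN) thymocytes, T cell precursors on which CD4 and CD8 are both missing. The 5 genes, *Icos*, *Cd28*, *Ctla4*, *Pdcd1* and *Btla*, were taken by name from the 41457 annotated genes, and all 5 were among the 12224 genes with enough reads to be tested. *Icos* was chosen by its CPM and log2 fold change in these same libraries (lower in Nc1Bio than in BirA), so its values in this comparison are a description and carry no test. The other 4 were taken as the remainder of the family. Nc1Bio mice (3 libraries, labelled NFATc1 overexpression) carried a single bacterial artificial chromosome (BAC) with the whole mouse *Nfatc1* locus, on top of the biotin ligase BirA. BirA mice (3 libraries, labelled WT) expressed the ligase from the *Rosa26* locus and had their normal *Nfatc1* alone, so both groups carried BirA. The NFATc1/A protein made from the BAC bears a biotin tag at its C terminus, as the study states. Mice were on a C57/B6 background and matched for age and sex, as the methods of the study state. The study describes the DN cells of this comparison as freshly isolated. DN cells were enriched by magnetic depletion with beads against CD4 and CD8, which leaves any other cell without these proteins in the sample.

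Receptors of this family sit on lymphocytes and adjust the response to an antigen receptor signal. CD28 and ICOS are co-stimulators whose cytoplasmic tails recruit phosphoinositide 3-kinase, whereas CTLA-4, PD-1 (encoded by *Pdcd1*) and BTLA are inhibitors, of which PD-1 and BTLA act through tyrosine phosphatases. In the thymus, ICOS is best known from innate-like T cells and regulatory T cells, and NFAT proteins are transcription factors of T cell activation that are known to bind control regions of *Pdcd1* and *Ctla4*.

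Expression is given as CPM, the reads assigned uniquely to a gene per 1000000 reads of the library, whose size was scaled by TMM, a method that balances libraries of different composition. The libraries held 11845952 to 14013497 such reads in Nc1Bio and 13767665 to 15393763 in BirA. *Nfatc1* reached 573, 597 and 551 CPM in Nc1Bio, against 152, 128 and 96.9 CPM in BirA. At an adjusted p under 0.05 it was the single gene called by the edgeR quasi-likelihood test, which is 0.00818% of the genes tested. BirA replicate 1 stood apart in genes of other cell types, with summed B cell markers of 340 CPM against 122 to 128 CPM in the other BirA libraries. The log2 fold change of each member is therefore also given without this library. Other libraries stood apart in other markers. Summed granulocyte markers were 210, 1670 and 3280 CPM in Nc1Bio, against 292, 4920 and 287 CPM in BirA. Summed erythroid markers were 40700, 17600 and 97500 CPM in Nc1Bio, against 66100, 30800 and 20100 CPM in BirA. Whether separate animals gave the libraries of a group is not in the labels, and the p-values therefore speak of library-to-library spread, which may be technical.

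*Icos* (ENSMUSG00000026009, chromosome 1, 60977927 to 61000320, plus strand, GRCm38) encodes the inducible co-stimulator. It had 4.66, 3.41 and 5.48 CPM in Nc1Bio, against 55.2, 36.0 and 22.5 CPM in BirA. Every Nc1Bio library lay far below the lowest BirA library, and the BirA libraries themselves were widely spread. Nc1Bio libraries averaged 4.52 ± 1.04 CPM and BirA libraries 37.9 ± 16.4 CPM (mean ± SD of 3), an 8.38-fold lower level in Nc1Bio with a log2 fold change of -3.07 (SE 0.36). This was the 23rd lowest log2 fold change among the 12224 genes tested. Without BirA replicate 1 the value was -2.69. In bulk samples, fewer cells that express *Icos* and less *Icos* RNA per cell cannot be told apart.

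The *Icos* values rest on 56, 45 and 71 reads in Nc1Bio, against 765, 562 and 324 reads in BirA. Most of these reads lay in exons. Intron reads numbered 2, 3 and 14 in Nc1Bio, against 7, 16 and 2 in BirA. These are few reads, not scaled for depth, and 14 of the 19 in Nc1Bio came from replicate 3. They are too few to compare the groups. Nc1Bio replicate 3 had the largest intron share, 19.7% of its *Icos* reads (exact Clopper-Pearson 95% interval 11.2% to 30.9%, which covers counting error only). Reads that span 2 exons, which come from spliced RNA, numbered 6, 2 and 0 in Nc1Bio, against 48, 40 and 14 in BirA. Counting exon reads alone gave a log2 fold change of -3.22 for *Icos*. The annotated gene model *Gm37039* overlaps *Icos* and had 0 unique reads in every library.

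*Cd28* (ENSMUSG00000026012, chromosome 1, 60716800 to 60773359, plus strand) encodes the founding co-stimulator of the family. It had 106, 80.6 and 102 CPM in Nc1Bio, against 155, 99.95 and 111 CPM in BirA. The groups overlapped, and BirA replicate 1 was the highest library. Its log2 fold change of -0.34 (SE 0.18) had an edgeR adjusted p of 0.496, and it was -0.13 without BirA replicate 1. *Cd28*, the co-stimulator with the higher level, therefore showed no difference that exceeded the spread between libraries.

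**Figure D1:**
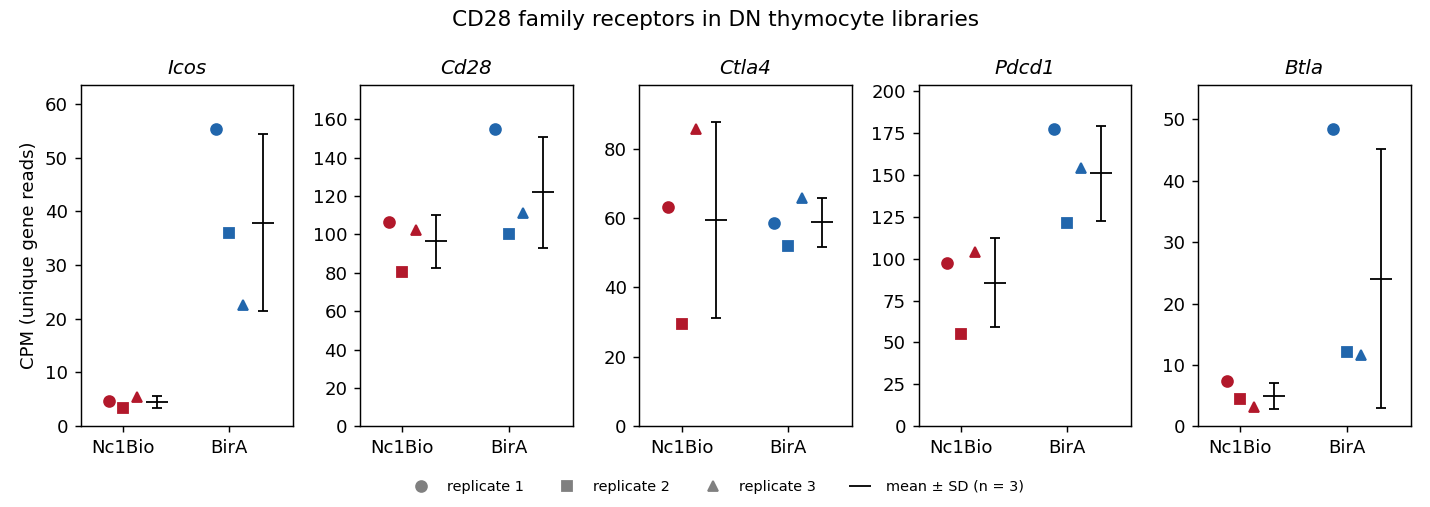
CPM of unique gene reads (vertical axis, from 0) of *Icos*, *Cd28*, *Ctla4*, *Pdcd1* and *Btla* in the 3 Nc1Bio libraries (red, left) and the 3 BirA libraries (blue, right), with the symbol giving the replicate number and black bars the mean ± SD. The groups are separate for *Icos*, *Pdcd1* and *Btla* and overlap for *Cd28* and *Ctla4*.

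*Ctla4* (ENSMUSG00000026011, chromosome 1, 60887000 to 60915832, plus strand) encodes the inhibitor that competes with CD28 for the ligands CD80 and CD86. It had 63.2, 29.4 and 85.5 CPM in Nc1Bio, against 58.5, 51.8 and 65.9 CPM in BirA. The Nc1Bio libraries spread on both sides of the BirA range. Nc1Bio libraries averaged 59.4 ± 28.3 CPM and BirA libraries 58.7 ± 7.03 CPM (mean ± SD of 3). Its log2 fold change of 0.015 (SE 0.33) had an edgeR adjusted p of 0.990. Its sign depended on the setting: it was -0.34 without Nc1Bio replicate 3 and 0.34 without Nc1Bio replicate 2, 0.012 without BirA replicate 1, and -0.11 with limma-voom, so no direction is given for *Ctla4*.

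*Pdcd1* (ENSMUSG00000026285, chromosome 1, 94038305 to 94052553, minus strand) encodes the inhibitor PD-1. It had 97.4, 55.1 and 104 CPM in Nc1Bio, against 177, 121 and 154 CPM in BirA. All Nc1Bio libraries lay below all BirA libraries. Nc1Bio libraries averaged 85.6 ± 26.6 CPM and BirA libraries 151 ± 28.1 CPM (mean ± SD of 3), with a log2 fold change of -0.82 (SE 0.24). The adjusted p was 0.296 in edgeR (unadjusted 0.0104) and 0.00687 in DESeq2, the tool that the study used, so *Pdcd1* passed the threshold of one tool and not of the other. Without BirA replicate 1 the log2 fold change was -0.69, and without Nc1Bio replicate 2 it was -0.58.

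*Btla* (ENSMUSG00000052013, chromosome 16, 45224315 to 45257670, plus strand) encodes an inhibitor found on B cells and T cells. It had 7.33, 4.48 and 3.08 CPM in Nc1Bio, against 48.4, 12.1 and 11.7 CPM in BirA. The groups did not overlap, but BirA replicate 1 lay far above the other BirA libraries. Nc1Bio libraries averaged 4.96 ± 2.16 CPM and BirA libraries 24.1 ± 21.1 CPM (mean ± SD of 3). Its log2 fold change of -2.28 (SE 0.62) had an edgeR adjusted p of 0.263 (unadjusted 0.00646) and 0.0845 in DESeq2. Without BirA replicate 1 it was -1.26, a much smaller difference. Introns held 8 of 187 *Btla* reads in Nc1Bio and 152 of 1027 in BirA. By library these were 4, 4 and 0 of 88, 59 and 40 reads in Nc1Bio. In BirA they were 95, 18 and 39 of 670, 189 and 168 reads, so most came from BirA replicate 1. The reads in Nc1Bio are few, and the intron shares of the groups were not tested.

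Of the 4 members other than *Icos*, 0 passed edgeR at an adjusted p under 0.05. At an unadjusted p under 0.05, 2 of the 4 (*Pdcd1* and *Btla*) were lower in Nc1Bio, where 7.66% of all genes tested were, and 0 were higher, where 4.31% were. The same 2 genes had all Nc1Bio libraries below all BirA libraries, as did 9.98% of all genes tested, and 0 had them above, as did 8.45%. DESeq2 called 1 of the 4 (*Pdcd1*) lower, where it called 2.16% of its genes lower, and 0 higher, where it called 0.32% higher. *Icos* also had its libraries apart, which the choice of this gene fixed.

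Promoter sequence from RefSeq (GRCm38.p6) was matched for 3 of the 5 members, *Ctla4*, *Pdcd1* and *Btla*, and not for *Icos* and *Cd28*. The 3 are shown to set a member with overlapping groups beside 2 with separate groups. Each sequence below runs 5′ to 3′ on the strand of the gene and gives the 250 bases before the RefSeq start. Capitals mark GGAAA on either strand (read as TTTCC on the opposite strand), the core sequence to which NFAT proteins bind. The windows are chr1:60908775-60909024 (plus strand) for *Ctla4*, chr1:94052554-94052803 (minus strand) for *Pdcd1* and chr16:45224087-45224336 (plus strand) for *Btla*. The *Ctla4* window lies inside the gene as the deposited tables bound it, since their gene start is farther upstream.
Ctla4: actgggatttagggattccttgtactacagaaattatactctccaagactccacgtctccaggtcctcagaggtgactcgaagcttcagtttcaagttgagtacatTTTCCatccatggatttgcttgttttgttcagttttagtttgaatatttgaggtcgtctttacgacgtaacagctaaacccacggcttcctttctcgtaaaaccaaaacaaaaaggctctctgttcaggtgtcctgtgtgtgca
Pdcd1: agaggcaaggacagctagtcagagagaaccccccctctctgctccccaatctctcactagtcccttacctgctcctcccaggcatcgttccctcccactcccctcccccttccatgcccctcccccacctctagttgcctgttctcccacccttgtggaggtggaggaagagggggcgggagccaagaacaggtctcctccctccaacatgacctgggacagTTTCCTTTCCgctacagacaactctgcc
Btla: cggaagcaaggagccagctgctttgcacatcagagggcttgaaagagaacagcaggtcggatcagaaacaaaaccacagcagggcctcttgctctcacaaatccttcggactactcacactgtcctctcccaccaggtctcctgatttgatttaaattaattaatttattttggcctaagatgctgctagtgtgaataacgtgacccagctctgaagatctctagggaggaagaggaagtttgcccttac
The *Pdcd1* window holds 2 directly adjacent matches, 28 to 24 and 23 to 19 bases before the start, the *Ctla4* window holds 1 match, 144 to 140 bases before the start, and the *Btla* window holds 0. Of all 32851 windows of this length in the table, 55.6% hold at least 1 match and 21.4% at least 2. The AP-1 motif TGANTCA, searched on both strands, was in 0 of the 3 windows and in 6.75% of all windows. A match is a description of the letters and not a binding site or a cause.

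Levels of different genes were compared per length, as the CPM of unique exon reads per kilobase of exon. *Pdcd1* was the highest member in both groups, at 44.2 ± 13.7 for Nc1Bio and 77.7 ± 14.3 for BirA (mean ± SD of 3 libraries). *Ctla4* followed with 25.0 ± 12.3 in Nc1Bio and 24.6 ± 3.24 in BirA, and *Cd28* with 15.7 ± 2.25 in Nc1Bio and 19.7 ± 4.57 in BirA. *Ctla4* and *Cd28* overlapped in their libraries in both groups, as did *Pdcd1* and *Ctla4* in Nc1Bio. *Icos* and *Btla* were the lowest members. *Icos* stood at 1.17 ± 0.212 in Nc1Bio and 10.9 ± 4.75 in BirA, and *Btla* at 1.40 ± 0.594 in Nc1Bio and 6.03 ± 5.37 in BirA. The ranges of these 2 genes overlapped in both groups. Within each BirA library *Icos* was above *Btla* (15.95 against 12.2, 10.2 against 3.22 and 6.52 against 2.64). In Nc1Bio *Icos* was below *Btla* in replicates 1 and 2 and above it in replicate 3, so no order is given there.

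The make-up of the family can be read as the share of each gene in the summed level per length of the 5 members. *Icos* made up 1.35%, 1.66% and 1.17% of this sum in Nc1Bio, against 9.47%, 8.98% and 4.84% in BirA. *Pdcd1* made up the largest part in every library, with 49.2% to 51.7% in Nc1Bio and 53.9% to 59.2% in BirA. For both genes the shares of the groups were separate, by a wide margin for *Icos* and a narrow one for *Pdcd1*. *Cd28* (15.3% to 23.5% in Nc1Bio, 13.4% to 14.8% in BirA) and *Ctla4* (21.7% to 33.5% in Nc1Bio, 14.6% to 20.6% in BirA) had separate shares too, higher in Nc1Bio. The shares of *Btla* overlapped. Shares of a sum offset one another, so the lower shares of *Icos*, chosen for its fall, and of *Pdcd1* go with higher shares of other members. The higher shares of *Cd28* and *Ctla4* are therefore no separate result.

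**Figure D2:**
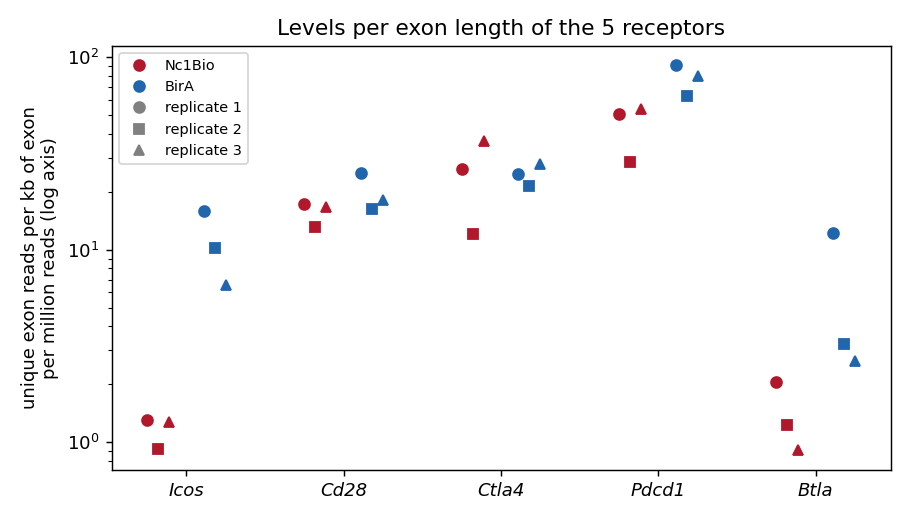
CPM of unique exon reads per kilobase of exon (vertical axis, log scale) of the 5 receptors in Nc1Bio (red, left of each pair) and BirA (blue, right of each pair), with 1 point per library and the symbol giving the replicate number. *Pdcd1* has the highest mean in both groups, and *Icos* lies at 0.929 to 1.31 in Nc1Bio, below its 6.52 to 16.0 in BirA.

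*Cd28*, *Ctla4* and *Icos* are neighbours on chromosome 1. *Ctla4* ends 62.1 kb and *Cd28* 205 kb before the start of *Icos*. Of 18 annotated genes within 500 kb of *Icos*, 6 were tested, and 3 of these are no members. *Abi2*, a regulator of actin assembly, had 19.5, 13.7 and 20.9 CPM in Nc1Bio, against 23.7, 27.7 and 24.7 CPM in BirA, a log2 fold change of -0.49 (SE 0.19, adjusted p of 0.388). *Raph1*, which encodes lamellipodin, came out at -0.093 on the log2 scale (SE 0.47), and the gene model *Gm11579* had -0.23 (SE 0.46). Among these 6 genes, the log2 fold change of -3.07 of *Icos* was not shared by its nearest tested neighbour *Ctla4*, at 0.015.

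**Figure D3:**
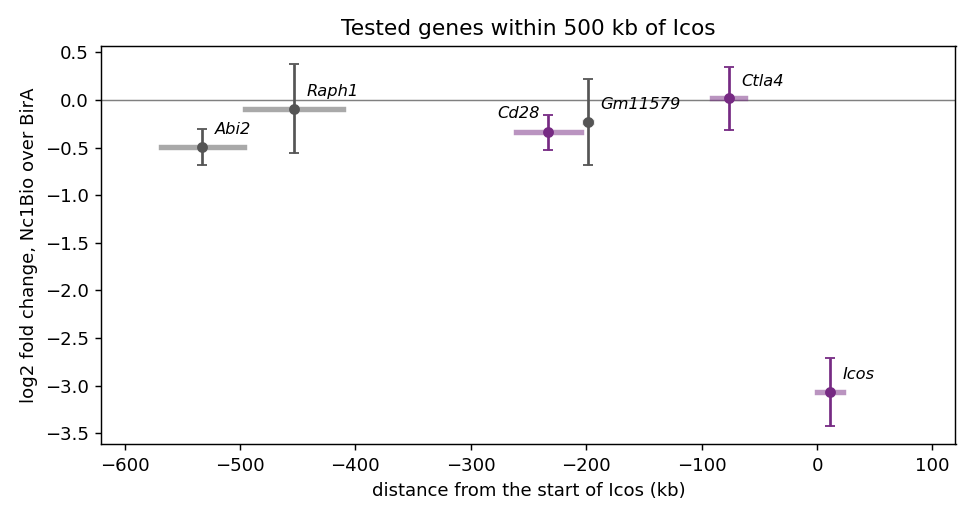
Difference of Nc1Bio from BirA as log2 fold change (vertical axis) by distance from the start of *Icos* in kb (horizontal axis) for the 6 tested genes within 500 kb, with members in purple and other genes in grey. Thick bars show the extent of the gene and thin bars ± 1 SE. *Icos* lies at -3.07 and the other 5 genes between -0.49 and 0.015.

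The ligands of these receptors include proteins of antigen-presenting cells, and 5 of 6 ligand genes were tested, with *Pdcd1lg2* below the filter. Of these, 0 passed edgeR, 1 had an unadjusted p under 0.05 and was lower (7.66% of all genes tested were), and the median log2 fold change was -0.60, against -0.0026 over all genes tested. *Icosl*, which encodes the ligand of ICOS, had 13.2, 6.45 and 9.56 CPM in Nc1Bio, against 27.4, 12.7 and 10.9 CPM in BirA, with a log2 fold change of -0.80 (SE 0.41, adjusted p of 0.477). Groups overlapped for *Icosl*. *Cd86*, a ligand of CD28 and CTLA-4, had 0.833, 0.228 and 0.231 CPM in Nc1Bio, against 9.67, 1.79 and 1.25 CPM in BirA, with a log2 fold change of -3.28 (SE 0.98). Its adjusted p was 0.295 in edgeR and 0.00822 in DESeq2. *Cd80*, the other ligand of CD28 and CTLA-4, had -0.60, *Cd274*, which encodes the PD-1 ligand PD-L1, had -0.48, and *Tnfrsf14*, which encodes the BTLA ligand HVEM, had 0.28, with adjusted p of 0.669, 0.604 and 0.721. *Cd80* had -0.29 without Nc1Bio replicate 1, -1.18 without Nc1Bio replicate 3 and -0.27 in unique exon reads. Without BirA replicate 1 the log2 fold changes of *Icosl*, *Cd86* and *Cd274* were -0.28, -1.81 and -0.21.

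Signalling genes downstream of CD28 and ICOS were lower in value in 18 of 24 (6163 of all 12224 genes tested were), with a median log2 fold change of -0.20. The edgeR test called 0 of the 24, 9 had an unadjusted p under 0.05 and were lower (7.66% of all genes were), and DESeq2 called 5 lower (2.16% of its genes). *Pik3cg*, a catalytic subunit of phosphoinositide 3-kinase, had a log2 fold change of -0.47, *Fyn*, a Src family kinase, -0.54, *Rictor*, a part of mTOR complex 2, -0.38, and *Prkcq*, the protein kinase C that acts at the T cell synapse, -0.44. Their adjusted p in edgeR ran from 0.151 for *Pik3cg* to 0.234 for *Prkcq*, while DESeq2 called *Pik3cg*, *Fyn* and *Prkcq* lower (adjusted p of 0.0128, 0.0279 and 0.0483). Of the 24 genes, 10 had all Nc1Bio libraries below all BirA libraries (9.98% of all genes did), and 0 had them above (8.45%).

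Genes of inhibitory signalling showed no common direction, with 4 of 8 lower and 4 of 8 higher in value and a median log2 fold change of -0.047. *Inpp5d*, which encodes the lipid phosphatase SHIP1, had 79.6, 77.9 and 74.7 CPM in Nc1Bio, against 139, 125 and 92.8 CPM in BirA, with a log2 fold change of -0.62 (SE 0.15). Its adjusted p was 0.212 in edgeR and 0.00824 in DESeq2. *Csk*, the kinase that restrains Src family kinases, had -0.12 (adjusted p of 0.605). Genes of CTLA-4 traffic had a median of -0.018 over 6 genes, and the 2 with the lowest p were *Ap1m1*, an adaptor subunit of the Golgi, at 0.13, and *Rab11a*, a GTPase of recycling endosomes, at -0.10. Among the 4 genes whose products act in decay of *Icos* mRNA, *Rc3h1* (Roquin-1) had -0.032, *Rc3h2* (Roquin-2) -0.12 and *Zc3h12a* (Regnase-1) -0.61, with adjusted p of 0.947, 0.757 and 0.488.

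Further co-receptors and B7-type ligands were lower in value in 9 of 12 tested genes, with a median log2 fold change of -0.74. The edgeR test called 0, while 3 had an unadjusted p under 0.05 and were lower (7.66% of all genes were), and DESeq2 called 2, *Cd226* and *Cd160*, lower (2.16% of its genes). *Cd226*, a co-stimulatory receptor for nectin-like ligands, had 4.08, 5.31 and 4.01 CPM in Nc1Bio, against 25.1, 12.8 and 11.7 CPM in BirA, a log2 fold change of -1.88 (SE 0.34, adjusted p of 0.125 in edgeR and 4.17e-05 in DESeq2). *Tnfrsf9*, which encodes the co-stimulator 4-1BB, had -2.10 (adjusted p of 0.237), and *Cd160*, which encodes another receptor for HVEM, had -1.63 (adjusted p of 0.317 in edgeR and 0.0287 in DESeq2). *Tigit*, an inhibitor that shares ligands with CD226, had -1.68 (adjusted p of 0.474), and *Vsir*, which encodes VISTA, had -0.79 (adjusted p of 0.503). The values of *Tigit* and *Cd160* were -0.29 and -0.89 without BirA replicate 1, and that of *Vsir* was -0.40 without BirA replicate 2.

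Genes linked to ICOS signals in effector T cells were lower in value in 9 of 10 tested of 15 listed, with a median log2 fold change of -1.03. The edgeR test called 0, 6 had an unadjusted p under 0.05 and were lower (7.66% of all genes were), and DESeq2 called 4 lower (2.16% of its genes). *Foxo1*, a transcription factor held out of the nucleus by phosphoinositide 3-kinase signals, had 27.2, 25.0 and 29.4 CPM in Nc1Bio, against 61.6, 49.2 and 48.2 CPM in BirA, with a log2 fold change of -0.96 (SE 0.14, adjusted p of 0.106 in edgeR and 3.93e-05 in DESeq2). *Maf*, a transcription factor of cytokine-producing T cells, had 11.7, 21.5 and 36.9 CPM in Nc1Bio, against 72.3, 98.9 and 108 CPM in BirA, with a log2 fold change of -1.99 (SE 0.37, adjusted p of 0.127 in edgeR and 0.00371 in DESeq2). Both had separate groups. *Ccr7*, a homing receptor gene, and *Klf2*, a transcription factor of lymphocyte homing, also stand on the mature T marker list and had -1.22 and -1.25, with adjusted p of 0.110 and 0.388 in edgeR. DESeq2 called *Ccr7* lower (adjusted p of 0.000233). *Klf2* had -0.50 without BirA replicate 1. The cytokine genes *Il21*, *Il5*, *Il13*, *Il17a* and *Ifng* were below the filter.

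**Figure D4:**
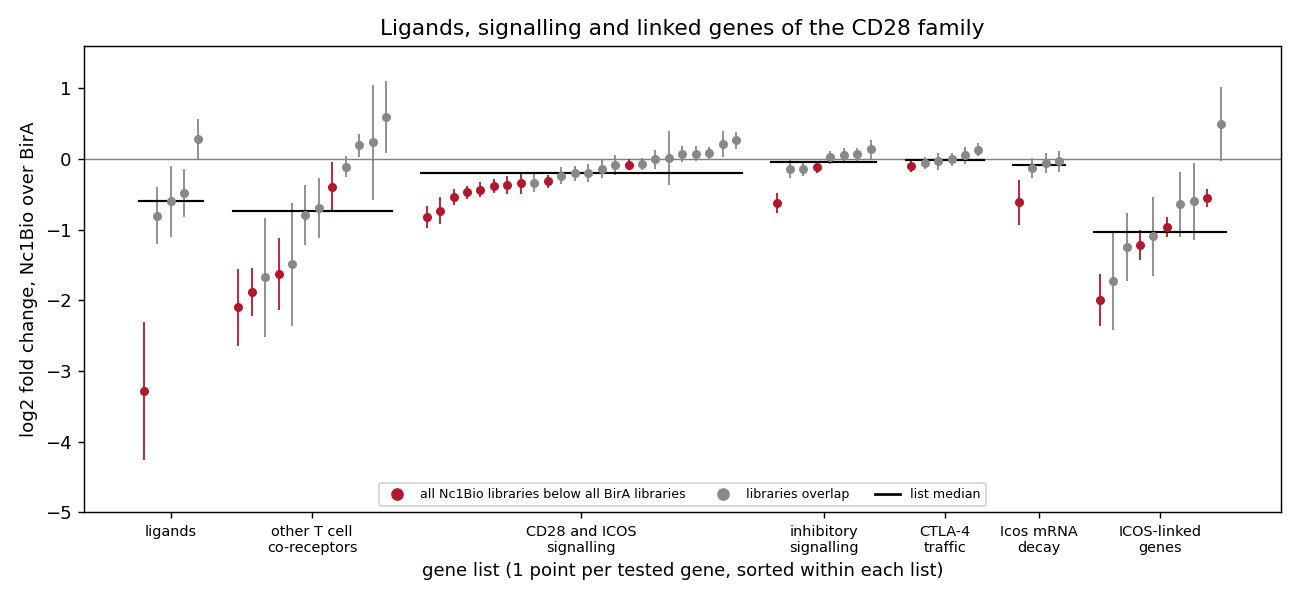
Log2 fold change, Nc1Bio over BirA, on the vertical axis with ± 1 SE for each tested gene of the 7 lists (horizontal axis), sorted within each list, with black lines at the list medians. Red points are genes with all Nc1Bio libraries below all BirA libraries and grey points are genes with overlapping libraries. The medians run from -1.03 for ICOS-linked genes to -0.018 for CTLA-4 traffic.

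Markers of other cell types that can remain after depletion of CD4 and CD8 positive cells moved with these results. Summed γδ T markers were 621, 617 and 832 CPM in Nc1Bio, against 1010, 1240 and 1380 CPM in BirA, with 8 of 8 genes lower in value. Summed markers of NKT-type innate-like T cells were 48.3, 8.88 and 20.4 CPM in Nc1Bio, against 344, 74.4 and 74.8 CPM in BirA, with 5 of 5 tested genes lower in value. Most of this sum was *Il2rb*, at 34.0, 5.54 and 15.9 CPM in Nc1Bio, against 264, 53.9 and 64.7 CPM in BirA. *Il2rb* and *Zbtb16* had separate groups, while *Klrb1c*, *Klrd1* and *Tbx21* overlapped. B cell markers summed to 84.4, 53.0 and 70.6 CPM in Nc1Bio, against 340, 128 and 122 CPM in BirA, with 6 of 6 genes lower in value. Groups did not overlap in any of these 3 sums, and BirA replicate 1, the highest library for *Icos*, *Cd28*, *Pdcd1* and *Btla*, was also the highest for B cell and NKT-type markers but the lowest BirA library for γδ T markers. Mature T markers were likewise separate (671 to 723 CPM in Nc1Bio, 923 to 1100 CPM in BirA). The sum of the NK list (290 to 474 CPM in Nc1Bio, 594 to 664 CPM in BirA) was nearly all *Gzma*, a granzyme gene that T cells also express. *Gzma* was at 274 to 468 CPM in Nc1Bio and 554 to 654 CPM in BirA. *Gzmb*, another granzyme gene of the list, had 3.08, 0.607 and 1.08 CPM in Nc1Bio, against 23.5, 8.39 and 5.63 CPM in BirA. The groups of *Gzmb* were separate, with a log2 fold change of -2.98 (adjusted p of 0.226 in edgeR and 5.7e-05 in DESeq2). The defining NK genes *Ncr1* and *Eomes* were below the filter, and *Prf1* overlapped.

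Dendritic cell markers, of interest for the ligand genes, summed to 126, 37.8 and 84.1 CPM in Nc1Bio, against 449, 131 and 119 CPM in BirA, and overlapped. Macrophage markers summed to 33.5 to 67.2 CPM in Nc1Bio and 50.0 to 162 CPM in BirA. Among regulatory T cell markers *Foxp3*, the defining gene, was at 0 in the Nc1Bio libraries and at 0 to 0.217 CPM in BirA, although the sum of the list was 19.2 to 25.3 CPM in Nc1Bio and 47.3 to 77.7 CPM in BirA. Type 2 innate lymphoid (ILC2) markers overlapped, at 18.9 to 20.1 CPM in Nc1Bio and 18.8 to 27.3 CPM in BirA, with 6 of 8 below the filter. Markers of DN thymocytes themselves were the other way round, with 10 of 10 higher in value in Nc1Bio (5530 to 6810 CPM) than in BirA (4730 to 5490 CPM). The part of these cell types in the values of *Icos*, *Pdcd1*, *Btla* and their ligands was not tested.

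**Figure D5:**
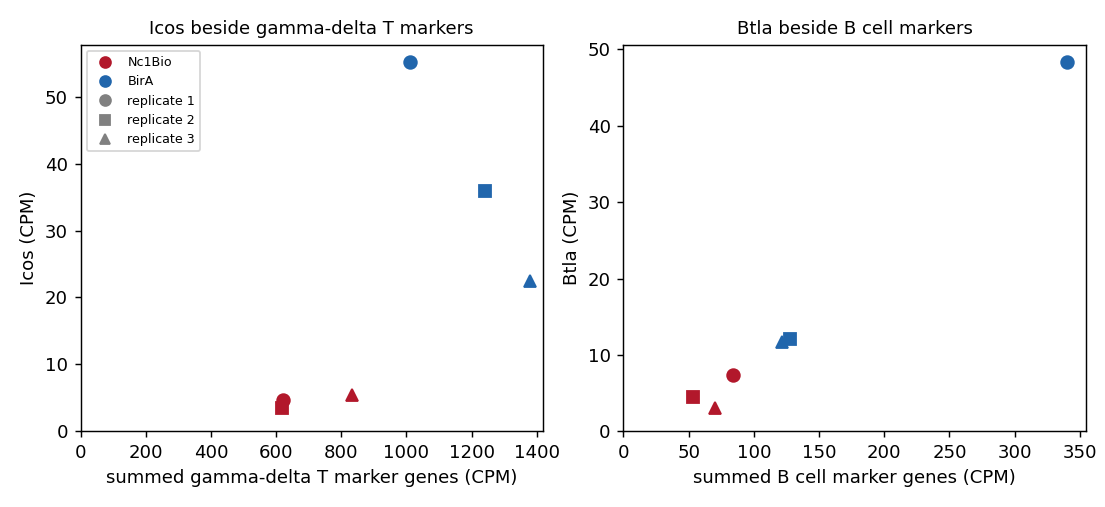
Left, CPM of *Icos* (vertical axis) against summed CPM of 8 γδ T marker genes (horizontal axis). Right, CPM of *Btla* against summed CPM of 6 B cell marker genes. Each point is a library, red for Nc1Bio and blue for BirA, with the symbol giving the replicate number. The Nc1Bio libraries lie at the lower left in both plots, and BirA replicate 1 has the highest value of *Icos* and *Btla* but not of the γδ T sum.

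Across the 6 libraries the members varied to different degrees with *Icos*. On log2(CPM + 1), Pearson's r with *Icos* was 0.87 for *Btla*, 0.84 for *Pdcd1*, 0.73 for *Cd28* and 0.19 for *Ctla4* (n = 6 libraries, which share the 2 groups). As deviations from the group means, r with *Icos* was 0.74 for *Cd28*, 0.68 for *Btla*, 0.49 for *Pdcd1* and 0.30 for *Ctla4*, while *Ctla4* and *Pdcd1* had 0.91 with each other. The genes whose values ran closest to *Icos* over the 6 libraries, among 9629 genes with a mean of at least 5 CPM, were *Ube2d1* and *Foxo1* (r = 0.993 each) and *Fam102a*, *Ankrd44* and *Samsn1* (r = 0.990 each). All 5 had separate groups, with log2 fold changes from -1.55 for *Fam102a* to -0.42 for *Ankrd44*. Over all genes tested, 9.98% had all Nc1Bio libraries below all BirA libraries. *Icos* was chosen for its fall and these 5 for their likeness to it, so their lower values follow from the choice. Within groups the closest were *Fam117a* and *Tspo* (r = 0.997 each), *Cd8b1* (0.995), *March1* (0.994) and *Pfkp* (0.993), and none of these 5 was among the 5 named before. With 6 libraries and 9629 genes, values this high are a description of rank alone.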

How the data were processed

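The labels name poly(A) libraries made from total RNA. According to the methods of the study, reads were trimmed, aligned with STAR to GRCm38 and counted with featureCounts. The deposited count tables have gene, exon, exon-exon and intron columns, a layout which featureCounts does not give, so whether it made them is unclear, and no source used here says if strand was used. For each of 41457 genes the authors deposited raw counts of reads in the gene, its exons and its introns, uniquely assigned or in all, and the unique gene count was used. TPM and RPKM columns were not used.

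Genes passing filterByExpr (12224) were scaled by TMM and tested with edgeR 4.0.16 (R 4.3.3) by the quasi-likelihood test, with genotype as the single term, all 6 libraries and Benjamini-Hochberg adjustment over all genes tested. Calls were made at an adjusted p under 0.05. DESeq2 1.42.0 ran on all genes with a read, with its own filtering, which left 13129 genes with an adjusted p, and limma 3.58.1 supplied limma-voom. The SE is the log2 fold change divided by the square root of F. The steps were tested on simulated data. Libraries of a group differed by 26.9 or more in chi-square per degree of freedom, so none was treated as a duplicate.

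Members, gene lists and markers were chosen with earlier results of these data known. Named genes were the members, *Nfatc1*, all tested ligands, up to 5 genes of lowest p in each list, the tested genes within 500 kb of *Icos*, and the 5 genes closest to *Icos* by each of 2 correlations. Some genes this rule gives are not reported here. Alternatives were RLE scaling, no filter, at least 1 CPM in 3 libraries as filter, DESeq2, limma-voom, total gene reads, unique and total exon reads, the replicate number as a block, each library left out and the threshold of the study for the counts of calls. Promoters were read from RefSeq. Gene coordinates follow the deposited tables, in GRCm38 per the submitters' processing notes.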

Additional observations from a re-analysis of the deposited data

How the results depend on the processing

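*Icos*, *Cd28*, *Pdcd1* and *Btla* kept their direction under all 15 alternatives. *Icos* ran from -3.33 to -2.69 on the log2 scale, both with a library left out. *Pdcd1* passed the threshold with DESeq2 (-0.82, adjusted p = 0.00687, range over its alternatives 0.00687 to 0.612) and *Btla* without a filter on low counts (-2.26, adjusted p = 0.0307, range 0.0307 to 0.592). *Ctla4* changed sign with limma-voom (-0.11), with the replicate block (-0.10) and with single libraries left out (-0.34 to 0.34). The cause was not tested.

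The counts of genes called higher and lower in Nc1Bio, 1 and 0 by edgeR, were 11 and 145 without a filter, 42 and 284 with DESeq2 and 16 and 167 with DESeq2 at the threshold of the study (an adjusted p below 0.01 with a log2 fold change beyond 0.5 either way). They were 0 to 1 and 0 to 1 with a library left out. With the replicate number as a block, 1 gene was called higher and 1 lower. Deviations of same-numbered libraries correlated at 0.339, 0.114 and -0.16, and Nc1Bio replicate 3 was closest to BirA replicate 2 (0.302), so the numbers were not taken as pairs.

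Of the other 38 genes named, 33 kept their direction. *Rc3h1* (-0.16 to 0.11), *Raph1* (-0.33 to 0.33), *Fam117a* (-0.031 to 0.086), *Tspo* (-0.39 to 0.065) and *Cd8b1* (-0.46 to 0.13) changed sign with a library left out. Without a filter edgeR also called *Cd226*, *Inpp5d*, *Foxo1*, *Ccr7*, *Maf*, *Fam102a* and *Samsn1* lower (adjusted p = 0.00114 to 0.0485), and DESeq2 called *Fam102a*, *Ankrd44* and *Samsn1* besides those given above. *Nfatc1* lost its call without any 1 Nc1Bio library or without BirA replicate 2 (adjusted p up to 0.141) at a log2 fold change of 2.16 to 2.22. With 45 to 71 reads of *Icos* in an Nc1Bio library and fewer for some ligands, depth limits the precision of low genes.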
